A study of Macaca fascicularis with 6 samples.

Results

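The integrin and laminin subunits of the left ventricle comprised 37 genes, 25 integrin and 12 laminin genes, among 21582 genes named on the array. They were taken by gene name alone. A probe set was a member when the gene name in its design, or the annotation's symbol where the design gave none, was ITGA or ITGB followed by a number or a single letter, or LAMA, LAMB or LAMC followed by a number. The rule found 109 of 52706 probe sets, 4 of them by symbol alone. Tissue came from the free wall of the left ventricle of male cynomolgus monkeys aged 4 to 6 years. The 4 intact animals (11, 12, 13 and 14) had not been operated. The 2 animals with chronic atrioventricular block (2 and 8) were taken 8 months after catheter ablation of the atrioventricular node. Both had been given oral dl-sotalol repeatedly, as well as moxifloxacin and vehicle. They were taken for analysis because torsade de pointes had developed in them most often, so the block, the drugs and the arrhythmia cannot be told apart. Each animal gave 1 array from a transmural specimen. The p-values set differences between the groups against the spread between these animals. In limma, the test used across probe sets below, that spread is partly pooled over probe sets.

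Integrins are heterodimers of an α and a β subunit that span the cell membrane and tie the matrix outside to the actin cytoskeleton inside. The α subunit largely sets the ligand, and the β1 subunit pairs with many α subunits, including those of the cardiomyocyte. Laminins are trimers of an α, a β and a γ chain that form the sheet of the basement membrane. The α2 chain is characteristic of striated muscle, and the α4 and α5 chains of vessel walls.

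Signals are MAS5 fluorescence intensities in arbitrary units, each array being scaled to a common 2% trimmed mean, and the probe set with the highest mean signal stands for its gene. Groups were compared on the log2 scale with limma over 22577 probe sets, those with a Present call on 2 or more of the 6 arrays. Signals of different probe sets depend on their probes and were not compared with each other. Of the 37 members, 24 were tested, 16 of them Present on all 6 arrays. The array of animal 2 was the dimmest before scaling (trimmed mean 54.6, against 73.5 in animal 8 and 75.1 to 88.2 in the intact animals). Its 3' over 5' GAPDH signal ratio, a measure of RNA or copy length, was 5.05. The ratio was 3.05 in animal 8 and 2.17 to 2.65 in the intact animals. The log2 difference between the groups was 0.763 (exact permutation test, 2-sided p = 0.0667, the smallest possible here). For ACTB the ratio was 11.6 in animal 2, 8.98 in animal 8 and 7.85 to 10.9 in the intact animals. The log2 difference for ACTB was 0.206 (exact permutation test, 2-sided p = 0.333). Cardiomyocyte markers identified the tissue, 11 of 11 on the array being Present on all arrays, and their summed signal was 75201 to 86940 in the intact animals, 100697 in animal 2 and 85809 in animal 8.

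In scaled signal, ITGAV, ITGB1 and ITGA7 were higher, and ITGA6, LAMA5 and LAMB3 lower, in both animals with block than in every intact animal. No member passed limma's adjusted p of 0.05 in either direction, where 0.00443% of all tested probe sets passed as higher and 0.0177% as lower. At an unadjusted p under 0.05, 2 of the 24 members were higher and 1 was lower, against 3.62% and 4.62% of all tested probe sets. The 2 arrays with block lay above all intact arrays in 3 of the 24 members and below them in 3. They did so in 8.61% and 9.48% of all tested probe sets, so such separation is not particular to the members. LAMB3 was among the members below. Its 2 Present calls were both in intact animals, so it was tested only through the group where it was higher. In number, 12 members were higher and 12 lower, with a median log2 difference of -0.07 beside a median of -0.0033 over all tested probe sets, and no member differed by 2-fold.

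**Figure D1:**
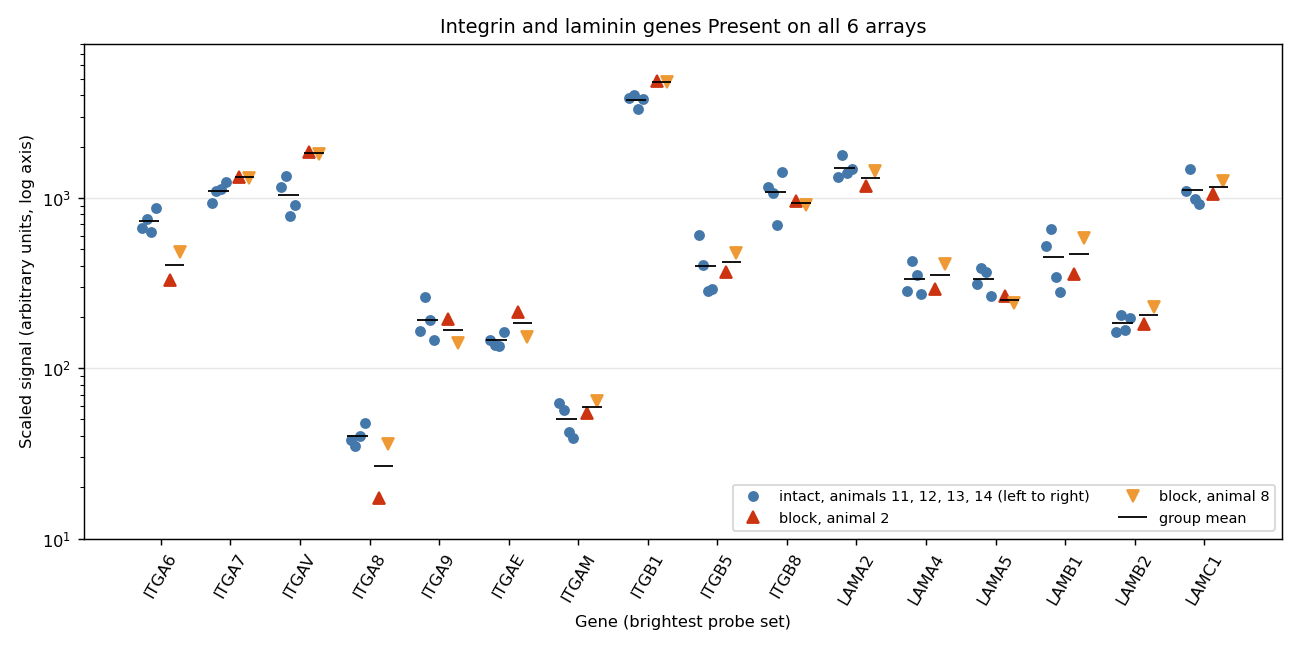
Scaled signal in each animal (vertical log axis, arbitrary units) of the 16 members Present on all 6 arrays; circles are intact animals, triangles the 2 animals with block and lines the group means. ITGAV, ITGB1 and ITGA7 lay higher in both animals with block than in every intact animal, and ITGA6 and LAMA5 lower.

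The laminin-binding α subunits came first. ITGA6, the α6 chain of receptors that bind laminin with β1 or β4, had signals of 666, 752, 630 and 872 in the intact animals (in the order 11, 12, 13 and 14, here and below) and of 327 and 482 with block (in the order 2 and 8). All intact values lay above both block values, and animal 2 was the lower of the pair. The mean was 730 ± 108 (SD, n = 4) in the intact animals and 405 ± 109 (SD, n = 2) in those with block, or a fold of 0.55 (log2 difference -0.87, SE 0.21, limma adjusted p = 0.351). This was 0.45 of the intact level in animal 2 and 0.67 in animal 8. The probe set aligned to chromosome 12, 36156303-36156837, on the plus strand of the rhesus build Mmul_051212, the build of all positions given here.

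The other ITGA6 probe sets Present on all arrays lay upstream of this one. The first of them (chromosome 12, 36155192-36155769) read 162, 208, 212 and 206 in the intact animals and 122 and 167 with block. It was lower with block by a log2 difference of -0.46 (limma adjusted p = 0.620), the value of animal 8 lying just above that of animal 11. The second (chromosome 12, 36137906-36141944) read 84.4, 205, 270 and 405 in the intact animals and 96.6 and 84.8 with block. Its log2 difference was -1.20 (limma adjusted p = 0.588), with animal 11 as low as the animals with block. All 3 probe sets were thus lower on average, and the groups stood apart in the brightest. ITGA6 is expressed by endothelial cells among others, and 4 of 12 tested endothelial markers were higher and 8 lower with block (median log2 difference -0.09). Among all genes tested, each by its brightest probe set, 6289 were higher and 6372 lower. The summed signal of the endothelial markers was 4103 to 4852 in the intact animals, 3968 in animal 2 and 4906 in animal 8. Their part in the ITGA6 result was not tested. In bulk tissue such as this, fewer cells of a type and less RNA per cell cannot be told apart.

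ITGA7, the α7 chain that pairs with β1 as the main laminin receptor of adult muscle fibres, read 939, 1092, 1131 and 1236 in the intact animals and 1333 and 1316 with block. Both block values lay above the intact range. The fold was 1.21 (log2 difference 0.28, SE 0.16), with a limma adjusted p of 0.683. A second ITGA7 probe set read 351, 344, 551 and 525 against 487 and 576, with a similar log2 difference of 0.29 and overlapping groups. The third laminin-binding α subunit, ITGA3, was Absent on every array in both of its probe sets.

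Among the α subunits that bind the RGD motif of fibronectin and related proteins, ITGAV stood apart. It encodes αV, which pairs with β1, β3, β5, β6 or β8 and binds fibronectin, vitronectin and latent TGF-β. Its signals were 1150, 1335, 781 and 912 without block, and 1861 and 1813 with it. The animals with block were close to each other and above every intact animal. The mean was 1044 ± 247 (SD, n = 4) in the intact animals and 1837 ± 34.1 (SD, n = 2) in those with block, or a fold of 1.80 (log2 difference 0.85, SE 0.22, limma adjusted p = 0.382). ITGAV had this single probe set (chromosome 12, 50294445-50295020, plus strand). The annotation's symbol column placed ITGAV instead on another probe set, aligned to chromosome 1 and designed on PIP5K1A, which read 111, 178, 127 and 152 against 107 and 126.

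ITGA5, the fibronectin receptor chain α5, read 74.5, 117, 73.5 and 75.8 in the intact animals and 61.1 and 89.7 with block, and was Present on 3 arrays. Animal 12 stood above the other intact animals and the groups overlapped (log2 difference -0.17, limma adjusted p = 0.893). ITGA8, which pairs with β1, was Present on all arrays, at 38.1, 35.0, 39.9 and 47.8 in the intact animals and 17.4 and 35.7 with block. Its log2 difference of -0.68 (SE 0.34, limma adjusted p = 0.646) came mostly from animal 2, at 0.44 of the intact level against 0.89 in animal 8.

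None of the collagen-binding α subunits was Present on all arrays. ITGA1, which binds collagens with β1, read 15.8, 23.4, 23.2 and 12.9 against 10.2 and 16.9 (log2 difference -0.47, limma adjusted p = 0.803). A second tested ITGA1 probe set, Present on 2 arrays, went the other way, at 1.001, 6.20, 5.99 and 1.60 against 4.84 and 6.76 (log2 difference 1.04), so no direction can be given for ITGA1. ITGA10 read 21.0, 14.9, 33.6 and 15.2 in the intact animals, where it was Present throughout, and 18.2 (Marginal) and 8.08 (Absent) with block. ITGA2 read 17.1, 22.5, 29.2 and 6.23 against 25.3 and 14.9. All 3 overlapped between the groups, with log2 differences of -0.72 for ITGA10 and 0.26 for ITGA2. ITGA11 was Absent in both of its probe sets. A further 4 probe sets are described as integrin α1 in their design but carry the name of an overlapping gene, PELO, so they fell outside the rule. They were examined after values had been seen. The bright one read 743, 695, 751 and 595 against 724 and 833, and another, at 51.0, 89.4, 83.2 and 116 against 20.7 and 56.9, was lower by a log2 difference of -1.25 (limma adjusted p = 0.509).

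ITGA4 and ITGA9 encode chains of receptors for VCAM1, fibronectin and tenascin. ITGA4 read 33.2, 36.0, 48.3 and 22.9 against 35.0 and 33.6, with a fold of 1.01. ITGA9 read 166, 261, 191 and 146 against 193 and 140, with a fold of 0.88. Both overlapped between the groups.

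Of the 7 leukocyte integrin genes, 3 were tested by their brightest probe set. ITGAM, the αM chain of macrophages and neutrophils, read 62.9, 56.7, 42.4 and 38.7 against 54.6 and 64.3 (log2 difference 0.27, limma adjusted p = 0.823). The annotation gave this probe set the symbol TAF9, and its alignment identity was 52.82%, so what it measures is uncertain. The partner of ITGAM, ITGB2, the β2 chain shared by leukocyte integrins, read 52.5, 33.2, 38.3 and 24.0 against 30.9 and 29.8 (log2 difference -0.23, adjusted p = 0.884 by the same fit). Neither pair of groups was separate. ITGAE, whose product pairs with β7 on intraepithelial lymphocytes, read 147, 136, 136 and 164 against 214 and 153, animal 2 being the highest of the 6. ITGB7, the partner of ITGAE, was Absent on every array. ITGAX was Absent throughout as well, ITGAD was Present on 1 array, and the brightest ITGAL probe set was Absent. Another ITGAL probe set, Present on 2 arrays, read 11.6, 11.4, 10.1 and 18.6 against 8.70 and 17.5. The alignment identity was 23.99% for the brightest ITGAL probe set and 6.35% for the other, so what they measure is also uncertain. Macrophage and monocyte markers were measured beside the leukocyte integrins, and 11 of 11 tested were higher with block. Over all genes on the array, each by its brightest probe set, 6289 of 12661 tested were higher. By limma, 2 of the 11 markers had an unadjusted p under 0.05 and 0 passed after adjustment. Of the 12661 genes, 494 were higher and 567 lower at that unadjusted threshold. The median log2 difference of these markers was 0.57. Their summed signal was 847 to 1587 in the intact animals, 1430 in animal 2 and 2225 in animal 8. Of 12 lymphocyte markers, 4 were tested, and CD3E, MS4A1, CD79A, NKG7 and IL7R were Present on none of the arrays. In the other lists of cell markers no gene passed after adjustment by limma. Their median log2 differences were 0.63 for erythroid, 0.25 for neutrophil, 0.22 for mesothelial, 0.11 for smooth muscle and pericyte, 0.071 for Schwann cell and neuron, -0.0071 for fibroblast, -0.038 for adipocyte, -0.28 for lymphocyte and -0.66 for platelet markers, the last over 2 tested genes.

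ITGB1, the β1 chain shared by most of the α subunits above, was higher with block in every one of its tested probe sets. The brightest read 3871, 4021, 3318 and 3827 without block, and 4828 and 4782 with it. Both block values lay above all intact values and near each other. The mean was 3760 ± 306 (SD, n = 4) in the intact animals and 4805 ± 32.5 (SD, n = 2) in those with block, or a fold of 1.28 (log2 difference 0.36, SE 0.14, limma adjusted p = 0.562). The probe set lay at chromosome 9, 33088552-33089125, on the minus strand.

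The 3 other tested ITGB1 probe sets aligned upstream of it in the same gene and had log2 differences of 0.43, 0.35 and 0.53. The last of these read 95.2, 143, 136 and 105 in the intact animals and 161 and 181 with block, again without overlap (limma adjusted p = 0.587). It was Absent in animal 11, and its alignment identity was 78.12%. The first 2 overlapped between the groups, since animal 14 was as high as the animals with block, at 1134 and 403. Cardiomyocyte markers, whose cells use β1 as their main β chain, were higher with block in 10 of 11 (median log2 difference 0.19). Over the whole array, 6289 of 12661 tested genes were higher. The part of the cardiomyocyte markers in the ITGB1 and ITGA7 differences was not tested.

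**Figure D2:**
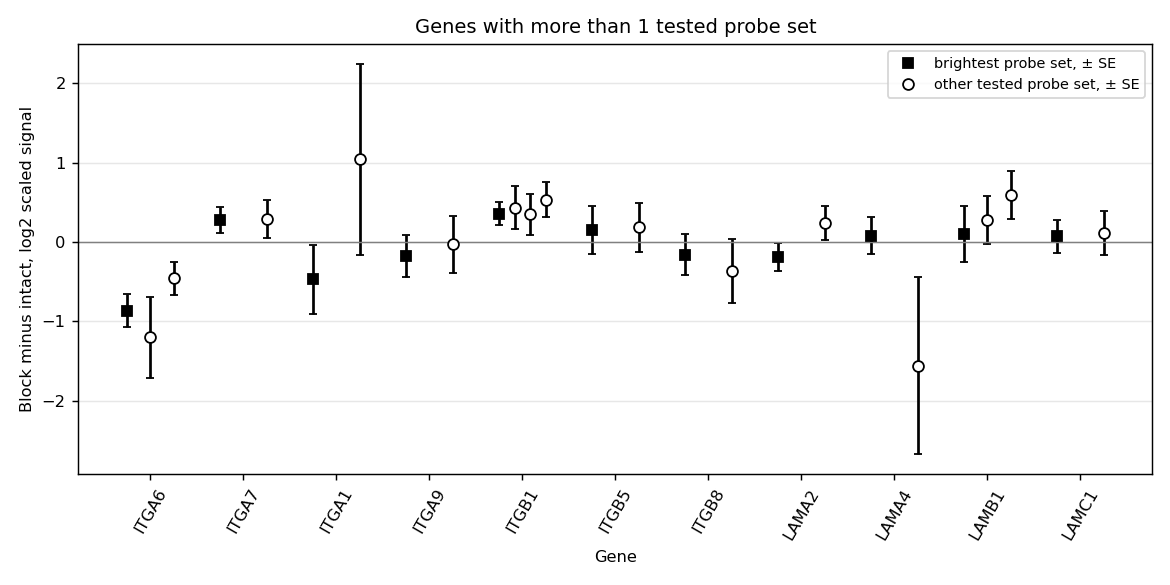
Difference between block and intact in log2 scaled signal (vertical axis, ± SE) for each tested probe set of the 11 genes with more than 1; filled squares are the brightest probe set and open circles the others. The 4 ITGB1 probe sets all lay above 0 and the 3 ITGA6 probe sets all lay below it, whereas LAMA2, LAMA4 and ITGA1 had probe sets on both sides.

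The scaling bore on these differences, and for ITGB1 and ITGA7 it set their direction. In the deposited signals, before scaling, the ratio of block to intact means was 1.37 for ITGAV and 0.44 for ITGA6, but 0.99 for ITGB1 and 0.93 for ITGA7. For the 3 other tested ITGB1 probe sets, in the order given above, that ratio was 0.99, 0.96 and 1.12. In their brightest probe sets, ITGAV, ITGA6, ITGB1 and ITGA7 kept the direction they had after scaling under each of the other scalings tried. The log2 differences were then 0.27 to 0.38 for ITGB1 and 0.23 to 0.30 for ITGA7. The selection rule on deposited signals (group means of 500 or more, differing by a factor of 2 or more) took none of the members, against 0.302% of the eligible probe sets as higher and 1.04% as lower. Only 6 members reached the signal minimum. ITGA6 did not, with deposited means of 804 in the intact animals and 355 with block.

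Apart from β1, the tested β chains that pair with αV overlapped between the groups. ITGB5 read 608, 403, 283 and 293 in the intact animals and 369 and 476 with block, a fold of 1.11 with both block values inside the intact range. ITGB8 read 1158, 1061, 692 and 1413 against 963 and 911, a fold of 0.89, also within the intact range. Its brightest probe set was assigned by symbol alone and aligned beside the other ITGB8 probe sets on chromosome 3. A second ITGB8 probe set, designed on the gene, read 32.3, 33.5, 35.6 and 62.9 against 45.2 and 20.9. ITGB6 was near the detection limit, Present on 2 arrays, at 51.5, 47.5, 31.95 and 52.7 against 40.8 and 27.8. ITGB3, the αV partner on platelets and vascular cells, was Absent on all arrays in 8 of its 9 probe sets and Present on 1 array in the other. ITGB4, which pairs with α6 in epithelia, was Absent in all 4 of its probe sets.

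**Figure D3:**
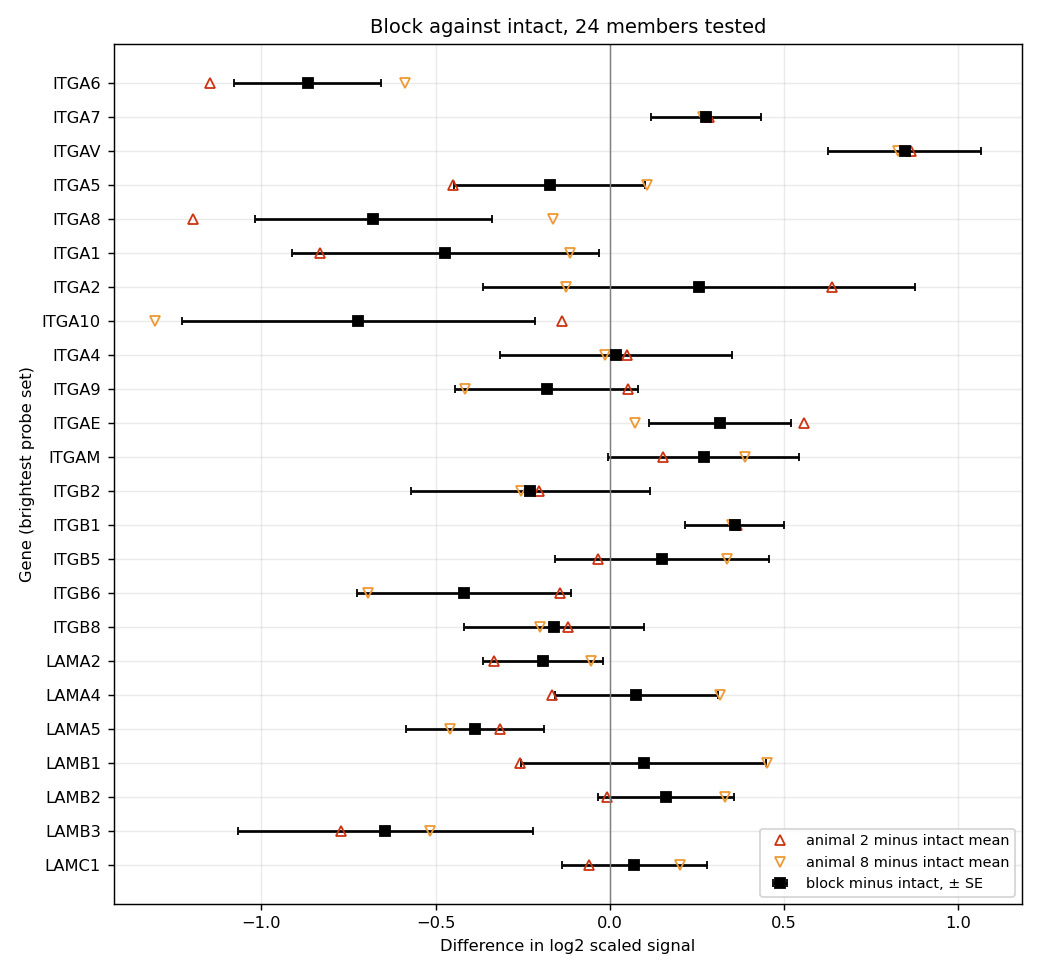
Difference in log2 scaled signal (horizontal axis) for the 24 tested members; squares are block minus intact with SE, and open triangles show animals 2 and 8 each against the intact mean. Animals 2 and 8 almost coincided for ITGAV, ITGB1 and ITGA7 and lay apart for ITGA6, ITGA8, ITGA10 and LAMB1.

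No laminin chain stood out by the test. Of 7 tested laminin genes, 4 were higher and 3 lower, none at an unadjusted limma p under 0.05, with a median log2 difference of 0.07. The chains of the muscle basement membrane laminin, α2β1γ1, were all Present on all arrays. LAMA2 read 1328, 1778, 1392 and 1471 in the intact animals and 1179 and 1429 with block, a fold of 0.87 (log2 difference -0.19, SE 0.17, limma adjusted p = 0.797). A second LAMA2 probe set at the same position read 343, 439, 344 and 278 against 371 and 451, a log2 difference of 0.24 in the opposite direction. The groups overlapped in both, so no direction can be given for LAMA2.

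LAMB1 read 524, 659, 343 and 279 against 356 and 582, a fold of 1.07, and LAMC1 read 1093, 1470, 987 and 921 against 1056 and 1263, a fold of 1.05. Animals 11 and 12 were the higher intact animals in both, and the block values lay inside the intact range. The other LAMB1 probe sets were also higher with block on average. One of them was Absent in all 4 intact animals and Present in both animals with block, at 42.9, 69.5, 38.0 and 42.1 against 82.5 and 60.1. This probe set was thus tested only through the group where it was higher, so its direction adds no support for LAMB1. It aligned to the strand opposite to the other LAMB1 probe sets, and its groups overlapped (log2 difference 0.59, limma adjusted p = 0.651). LAMB2, the β2 chain of vessels and of the neuromuscular junction, read 162, 206, 168 and 198 against 181 and 230, a fold of 1.12. Its annotation symbol was LAMC1, but it aligned to chromosome 2, whereas the LAMC1 probe sets aligned to chromosome 1.

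Of the vascular α chains, LAMA4 read 284, 424, 352 and 272 against 292 and 408, a fold of 1.05. A second tested LAMA4 probe set, Present on 2 arrays, read 2.11, 12.6, 17.6 and 27.7 against 8.12 and 1.62, a log2 difference of -1.56 in the opposite direction. The groups overlapped in both, so no direction can be given for LAMA4. LAMA5 read 313, 389, 369 and 267 in the intact animals and 265 and 240 with block. Both block values lay below the intact range, animal 2 (265) barely so beside animal 14 (267), with a fold of 0.76 (log2 difference -0.39, SE 0.20, limma adjusted p = 0.651). LAMB3, an epithelial β chain, lay below the intact range too, at 16.2, 15.5, 14.6 and 12.7 against 8.61 and 10.3, but it was Absent in both animals with block and in 2 of the 4 intact animals. LAMA1 and LAMB4 were Absent on every array, and LAMA3 and LAMC3 were Present on none.

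In all, 9 of the 37 genes had no Present call on any array in any probe set: ITGA3, ITGA11, ITGAX, ITGB4, ITGB7, LAMA1, LAMA3, LAMB4 and LAMC3. Members also varied among the intact animals. The SD of the log2 signal over the 4 intact animals had a median of 0.33 in the tested members, from 0.12 for ITGB1 to 0.98 for ITGA2. The median was 0.27 over all tested genes, each by its brightest probe set, and 0.30 over all tested probe sets. The positions fell in groups. ITGA4, ITGA6, ITGAV and ITGB6 aligned to chromosome 12, and the leukocyte genes ITGAD, ITGAL, ITGAM and ITGAX to chromosome 20.

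Proteins that link integrins to actin were examined next. Of 20 tested genes among 24 activators and adaptors, 12 were higher and 8 lower with block, none after adjustment by limma, with 4 higher and 0 lower at an unadjusted p under 0.05 (median log2 difference 0.10). Over all genes on the array, each by its brightest probe set, 494 of 12661 tested were higher and 567 lower at that threshold. The 3 with the largest differences were higher in both animals with block than in every intact animal. FLNC, the muscle filamin that binds β1 tails and Z-disc proteins, read 1449, 1311, 1284 and 1417 against 1923 and 2329 (fold 1.55, limma adjusted p = 0.351). LIMS1, the PINCH1 adaptor of integrin-linked kinase, read 1526, 1158, 1905 and 1626 against 2289 and 2160 (fold 1.45). VCL, vinculin of adhesion sites and costameres, read 1142, 1363, 1273 and 1429 against 1666 and 1760 (fold 1.32). TLN1 and TLN2, the talins that switch integrins on, were chosen after values were seen and had log2 differences of 0.18 and -0.12.

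The dystrophin and dystroglycan complex is the other laminin receptor of the cardiomyocyte. Of 18 tested genes, 10 were higher and 8 lower, 1 higher at an unadjusted limma p under 0.05 and none after adjustment (median log2 difference 0.02). DTNA, dystrobrevin α, read 426, 336, 450 and 308 against 617 and 510 (fold 1.49, limma adjusted p = 0.511). UTRN, the dystrophin homologue utrophin, read 657, 662, 590 and 477 against 793 and 715 (fold 1.27), and SNTB1, a syntrophin, read 51.2, 42.6, 62.0 and 70.8 against 45.0 and 33.97 (fold 0.70). DTNA and UTRN were higher in both animals with block than in all intact animals, and SNTB1 overlapped. DAG1, the dystroglycan that binds laminin α2, was chosen after its values were seen, and read 682, 646, 751 and 854 against 509 and 651, with overlap.

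The other basement membrane genes, 14 tested of 16, were higher in 9 and lower in 5 (median log2 difference 0.07), 1 of them at an unadjusted limma p under 0.05 and none after adjustment. COL4A6, a collagen IV chain, read 26.4, 32.03, 23.8 and 29.1 against 66.7 and 34.9 (fold 1.75, limma adjusted p = 0.575). NID2, the nidogen that bridges laminin and collagen IV, read 172, 427, 390 and 208 against 158 and 208 (fold 0.65). COL15A1, a basement membrane collagen, read 1085, 1789, 1337 and 863 against 773 and 1048 (fold 0.74). NID2 and COL15A1 overlapped between the groups.

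Of the integrin ligands outside the laminins, 14 of 22 genes were tested, and 9 were higher and 5 lower (median log2 difference 0.13). At an unadjusted limma p under 0.05, 4 were higher and 0 lower, beside the 494 higher and 567 lower of 12661 genes over the whole array, and none passed after adjustment. The authors had already picked FN1 and THBS1 for their fold changes on these same arrays. The count for this list is therefore not independent of the data. FN1, fibronectin, read 1124, 1759, 1390 and 628 in the intact animals and 1944 and 4275 with block (fold 2.52, limma adjusted p = 0.472). Both block values lay above the intact range, that of animal 8 by far. THBS1, the matricellular protein thrombospondin 1, read 869, 1339, 171 and 429 against 1206 and 2896 (fold 3.45), and EDIL3, a secreted RGD protein that binds αV integrins, read 357, 204, 1404 and 458 against 1203 and 1591 (fold 2.97). Both overlapped, with animal 12 above animal 2 in THBS1 and animal 13 above it in EDIL3. VTN, FGA, FGB and FGG, the vitronectin and fibrinogen genes, were Absent throughout. Of all 12661 genes tested, 6289 were higher and 6372 lower, and the median log2 difference was -0.0025.

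**Figure D4:**
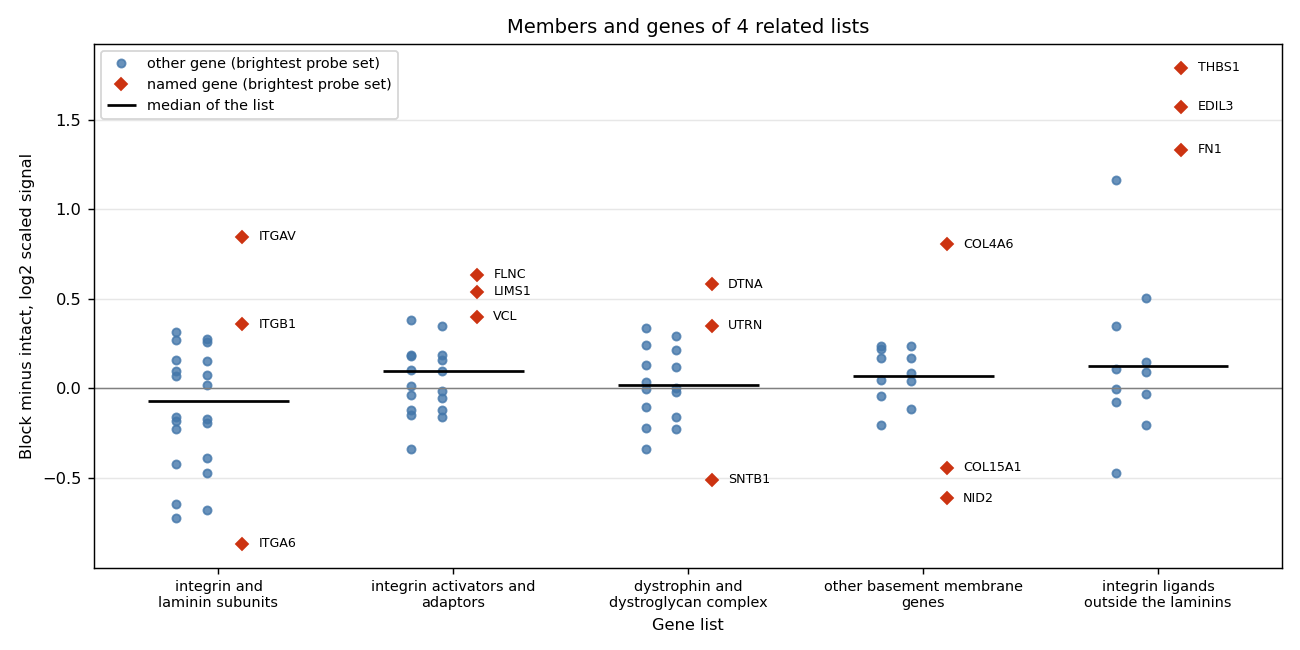
Difference between block and intact in log2 scaled signal (vertical axis) for the tested members and for the tested genes of 4 related lists; each point is 1 gene, diamonds are genes named in the text and lines are medians. The medians of the 5 groups lay between -0.07 and 0.13, and THBS1, EDIL3 and FN1 lay above all other genes plotted.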

How the data were processed

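RNA of 6 left ventricles, 1 Affymetrix Rhesus Macaque Genome Array each, was read out by the authors with MAS5 (version not given in the sources used here). The deposited table holds, per probe set and array, a signal (intensity, linear scale, smallest value 1), a detection call and a normalized log2 value. For that log2 value the authors subtracted the median of each array and then the median of each probe set over the intact arrays. In the other deposited table the intensity values are the same, and 1 probe set is added. The 12 columns of detection p-values and probe pairs were not used.

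Each array was rescaled so that the 2% trimmed means of the deposited signals became equal, and the log2 of the result was analysed. Control probe sets (158) were left out. Probe sets Present on at least 2 of 6 arrays were tested in R 4.3.3 by limma 3.58.1, with lmFit and with eBayes allowing the variance to follow the signal. The test was 2-sided and p-values were adjusted by Benjamini-Hochberg over all 22577. A fold is 2 to the power of the difference between mean log2 signals. Single array measures were compared by exact permutation over 15 splits. Probe sets were assigned to genes by their design name (40556) or, without one, by the annotation's symbol (2830). The number of arrays limits the precision, and Present calls covered 36.0% to 39.7% of probe sets per array. Probes were designed on rhesus sequence, which can lower signals in the cynomolgus monkey.

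The members and lists were chosen with earlier results of these data known. The rule for naming accounts for every member, gives values in every animal for members Present on at least 2 arrays, and takes up to 3 genes with the largest difference from each related list. Marker lists of 12 cell types were summarized, and those of cells that carry the members are given beside them. Alternatives were other scalings, the authors' normalized values, an offset of 32, other filters, eBayes without trend or robust, array weights, mean over probe sets, annotation symbols, ratios of arithmetic means, other limits of the selection rule and leaving out each animal. The fit was tested on simulated data. The results of some genes are not reported here. Python 3.11.15, pandas 2.3.3 and matplotlib 3.10.9 were used for tables and figures.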

Additional observations from a re-analysis of the deposited data

Results flagged for a closer look

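Among the 24 tested members, the 4 intact animals were examined for a value far from the other 3, and 1 was found. ITGA5 read 117 in intact animal 12, and its gap to the next animal took 0.947 of the group's range, above Dixon's critical value for 4 samples. Chance flags about 1 in 20 such groups.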

How the results depend on the processing

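No member passed an adjusted p of 0.05 under any of the alternatives run. The count of all probe sets that passed was 5, but 0 with quantile normalization, 0 with the authors' normalized columns, 0 without a variance trend, 0 with array weights and 8 with an offset of 32. Leaving out 1 animal gave 0 to 4, namely 4 without animal 8, 2 without animal 14 and 0 without each of the others. The selection rule on deposited signals took no member, but 1, ITGA6, with a signal minimum of 100. Leaving out any 1 animal cannot turn the direction of ITGAV, ITGB1 and ITGA6, whose block values lay beyond every intact value. Their log2 differences then were 0.72 to 0.97, 0.30 to 0.39 and -1.15 to -0.59. With the annotation's symbols, which point to other probe sets, ITGAV was at -0.27 and ITGAM at -0.10.

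Directions also changed for other members. ITGA4 was at -0.0034 with an offset of 32, -0.013 with array weights and -0.032 by arithmetic means. The mean over probe sets gave 0.28 for ITGA1, 0.023 for LAMA2 and -0.74 for LAMA4. Leaving out 1 animal gave log2 differences of -0.26 to 0.45 for LAMB1, -0.21 to 0.64 for ITGA2, -0.17 to 0.19 for ITGA4, -0.17 to 0.32 for LAMA4, -0.059 to 0.21 for LAMC1, -0.45 to 0.10 for ITGA5, -0.42 to 0.053 for ITGA9, -0.034 to 0.38 for ITGB5 and -0.0089 to 0.33 for LAMB2. The cause was not tested, except where other probe sets were read. With 4 arrays against 2, members with few Present calls, such as the collagen-binding α subunits, carry little precision. No paired analysis was possible because the groups share no animal numbers.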
